A study of Saccharomyces cerevisiae with 8 samples.

Results

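The yeast cell wall was followed through its messenger RNAs: 56 genes that build, remodel or guard it, out of 5656 genes that the arrays named and 5188 that were tested. They comprise 22 genes of glucan synthesis and remodelling, 7 of chitin, 13 of wall proteins and 14 of the cell integrity signalling pathway. The wall protein class includes KRE2 and PSA1, genes of a mannosyltransferase and of mannan precursor supply. Each was chosen by its known function and read from its brightest probe set assigned to that single gene by the platform annotation. All 56 passed the intensity filter used for all genes. One, the sensor gene WSC1, was found under its platform name SLG1.

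The samples were commercial baker's yeast, Saccharomyces cerevisiae, whose strain name is not given in the labels. Compressed yeast was suspended in a liquid fermentation medium from which sucrose and maltose were left out, then kept at -20 °C for 0, 3, 7 or 14 days. Each sample was thawed for 10 min at 30 °C before RNA was taken, so the values describe cells just after thawing. Each time had 2 independent samples, each read on 1 Affymetrix array, 8 arrays in all. The labels do not say whether the 0 day samples were frozen briefly or not at all. Signals below are quantile-normalised intensities on a linear scale, with no unit, and can be compared between arrays for 1 gene but not between genes.

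The wall is a mesh of beta-1,3-glucan chains, with shorter beta-1,6-glucan branches that tie mannoproteins to it and a small amount of chitin. Glucan is spun out at the plasma membrane by Fks1 or its alternate Gsc2, and enzymes outside the cell lengthen the chains and link them to chitin. Stress on the wall is sensed at the surface by Wsc and Mid proteins, which act through the GTPase Rho1 on protein kinase C and the kinases Bck1, Mkk1, Mkk2 and Slt2. Slt2 activates the transcription factor Rlm1, which drives many wall genes.

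Deposited array medians ran between 51.6 and 109.7, and normalisation brought the arrays to a common distribution. The 10 probe sets for ribosomal RNA, relative to each array's median, were at 15.7 to 22.7 in the 4 arrays of 7 and 14 days and at 6.76 to 11.3 in the 4 arrays of 0 and 3 days. This RNA measure moves with the late against early comparison used below, and its part in the results was not tested. In bulk samples, fewer cells with a transcript and less of it per cell cannot be told apart.

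**Figure D1:**
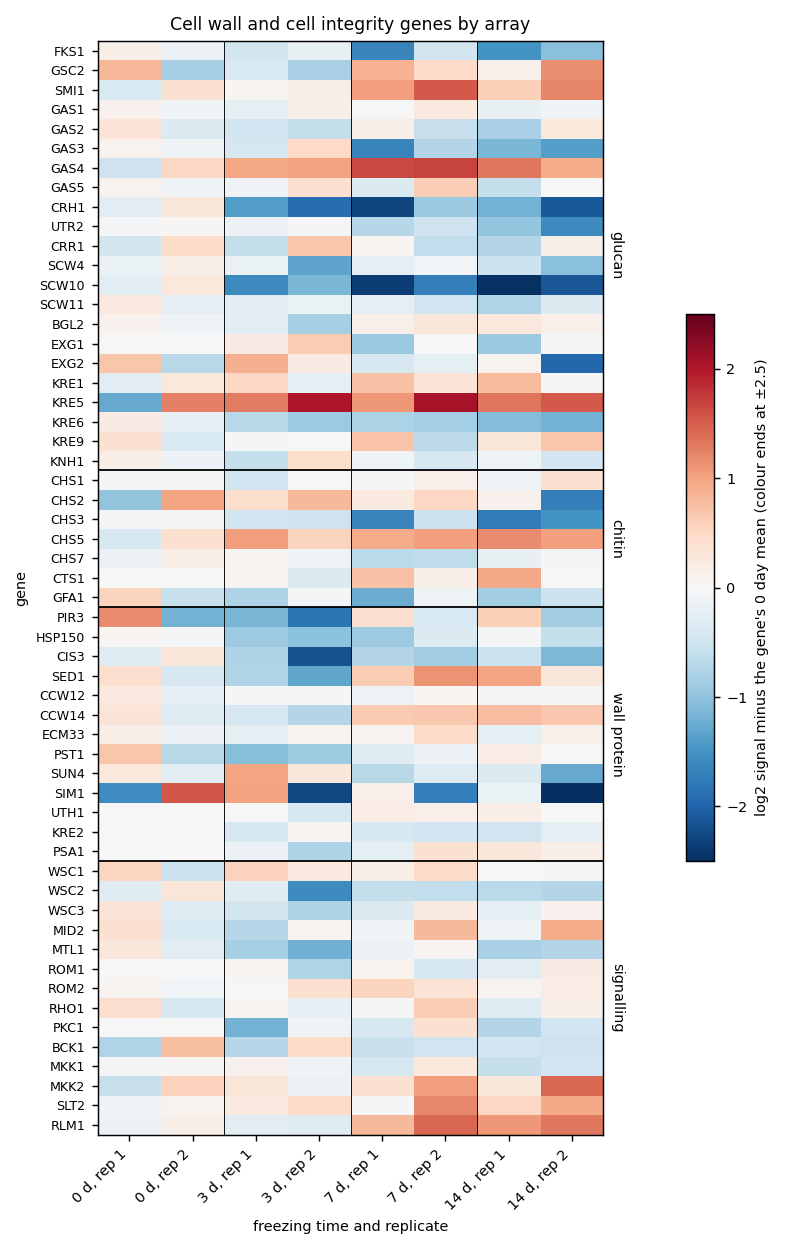
Log2 signal of each of the 56 wall and integrity genes minus its own mean at 0 days (colour, ending at ±2.5), with the 8 arrays in columns from 0 to 14 days frozen and genes in rows by class. SCW10 is below its 0 day level in all 6 frozen arrays, and CCW14 and RLM1 are above theirs in all 4 arrays of 7 and 14 days.

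Few genes of the wall passed the test against 0 days of storage. By limma with Benjamini-Hochberg adjustment over all 5188 genes (adjusted p under 0.05), none of the 56 was called at 3 days against 0 days, and the count over all genes was also 0 (0%). At 7 days none was called, where 0.212% of all genes were. At 14 days SCW10 alone was called, and it fell, where 1.73% of all genes were called in either direction and 0.732% as lower. At an unadjusted limma p under 0.05 the members numbered 8 at 3 days (14.3%, beside 7.02% of all genes), 13 at 7 days (23.2%, beside 19% of all genes) and 11 at 14 days (19.6%, beside 22.2% of all genes). A moderated F test among the 4 times called SCW10 (adjusted p = 0.0361) and CCW14 (adjusted p = 0.0458), against 2.58% of all genes.

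SCW10 encodes a wall protein related to glucanases, needed together with its relative Scw4 for a sound wall. Its signal was 1399 and 1990 at 0 days, 555 and 755 at 3 days, 327 and 508 at 7 days, and 303 and 380 at 14 days. Every frozen array lay below both 0 day arrays, and the ranges of 3 days and 7 days did not meet. At 14 days against 0 days SCW10 fell by 2.30 ± 0.39 (SE) on the log2 scale, or 4.92-fold lower (limma adjusted p = 0.0251). At 7 days the difference was -2.03 ± 0.39 with an adjusted p of 0.0566, and at 3 days it was -1.37 with no call. A second, dimmer probe set of the gene gave -2.49 at 3 days, -3.10 at 7 days and -1.75 at 14 days, lower throughout but without the stepwise order of the first. The 14 day call was lost without 0 day replicate 2, 14 day replicate 1 or 14 day replicate 2, and over all 8 such fits the value ran between -2.55 and -2.04.

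The later times were also set against the earlier ones, as the mean of 7 and 14 days minus the mean of 0 and 3 days. This grouping was proposed with the separation of these same arrays known, so its calls are no independent evidence of that separation. It called 9 of the 56 genes, a share of 16.1%, and 16.1% of all genes, so the wall genes were called as often as genes in general. Both directions were found among them: SMI1, SED1, CCW14 and RLM1 rose (all genes higher, 9.52%), and SCW10, FKS1, GAS3, UTR2 and CHS3 fell (all genes lower, 6.61%). The calls took in 5 of 22 glucan genes, 1 of 7 chitin genes, 2 of 13 wall protein genes and 1 of 14 signalling genes. All 4 late arrays stood above all 4 early arrays for SMI1, BGL2, CCW14 and RLM1, 7.14% of the members beside 13.2% of all genes. They stood below for GAS3, UTR2, SCW10, EXG1, CHS3 and SUN4, 10.7% beside 10.4%.

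On values left unnormalised the median of all genes itself shifted by 0.61. The split of called members was then 13 higher and 1 lower, beside 1545 higher and 97 lower over all genes. With array medians set equal it was 4 higher and 3 lower, beside 536 higher and 256 lower over all genes. Leaving out 1 array gave 3 to 8 calls: 3 without 3 day replicate 2 or 14 day replicate 1, 4 without 7 day replicate 1 or 14 day replicate 2, and 5 without 3 day replicate 1.

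**Figure D2:**
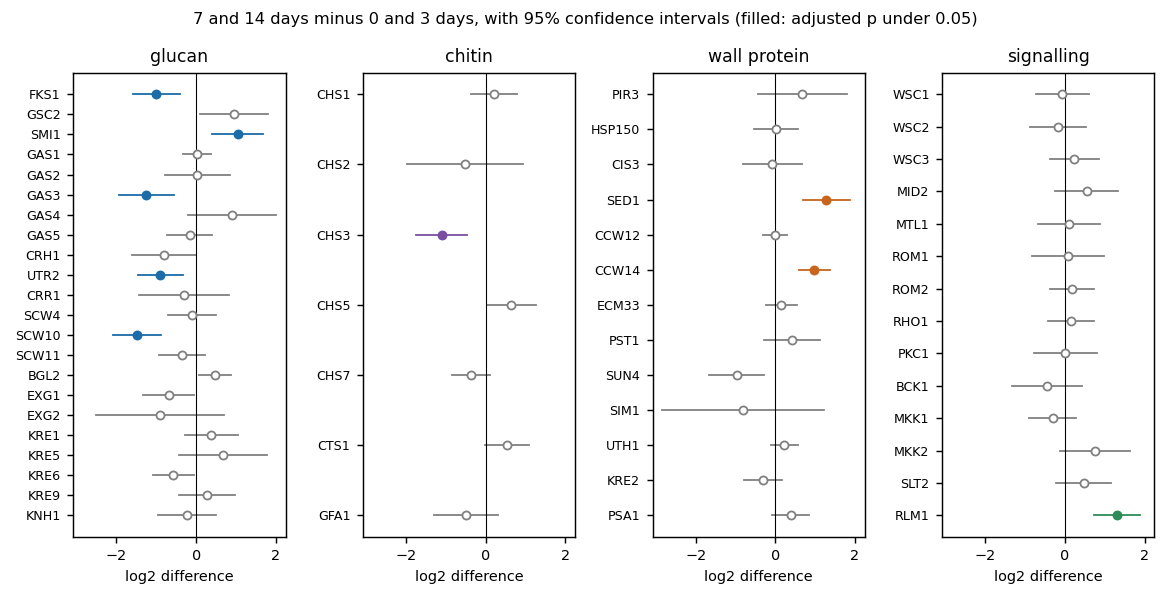
Log2 difference of each of the 56 genes, 7 and 14 days minus 0 and 3 days, on the horizontal axis with its 95% confidence interval as a line, in a panel per class. Filled points mark the 9 genes called at an adjusted p under 0.05, 4 above 0 and 5 below, and open grey points mark the others.

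In beta-1,3-glucan synthesis the synthase gene FKS1 fell and the regulator gene SMI1 rose. FKS1, the main catalytic subunit of glucan synthase, read 4863 and 3952 at 0 days, 3185 and 3877 at 3 days, 1397 and 3185 at 7 days, and 1557 and 2114 at 14 days. The lower 3 day array and the higher 7 day array had the same normalised value, and the other late arrays lay below all early ones. Late against early, FKS1 was 2.01-fold lower (-1.005 ± 0.27 log2, limma adjusted p = 0.0310). Of its 7 probe sets past the filter 5 were lower and 2 higher, from -1.05 to 0.29. SMI1, also known as KNR4, encodes a regulator of wall synthesis that works with Slt2. Its signal was 202 and 343 at 0 days, 274 and 294 at 3 days, 542 and 760 at 7 days, and 398 and 615 at 14 days. All 4 late arrays lay above all 4 early arrays, and SMI1 rose 2.06-fold (1.05 ± 0.29 log2, limma adjusted p = 0.0359).

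GSC2, the alternate synthase subunit that is known to take over under stress and starvation, read 855 and 271 at 0 days, 370 and 275 at 3 days, 882 and 673 at 7 days, and 524 and 1073 at 14 days. The first 0 day array lay among the late ones, so the groups overlapped, and the late minus early difference of 0.96 ± 0.39 did not pass the test (limma adjusted p = 0.111). All 6 of its probe sets past the filter had a higher late mean, from 0.34 to 2.46, but not all stood above 0 days. A dim one (mean log2 4.87, filter at 4.16) was at -0.31 at 7 days and -2.07 at 14 days against 0 days. Its late mean was higher only through -3.36 at 3 days. Whether the several probe sets of GSC2 and FKS1 tell these related genes apart was not tested. Within each array the log2 ratio of GSC2 to FKS1 averaged -1.36 ± 0.70 in the late arrays and -3.32 ± 0.64 in the early arrays (SD, n = 4 each). The late ratios were all above the early ones, a difference of 1.96 (exact permutation test over arrays, two-sided p = 0.0286, the smallest that 70 splits allow). This was 1 of 11 pairs of related genes compared, and the Benjamini-Hochberg adjusted p over them was 0.157. The permutation tests pool 2 times on each side as 4 like arrays. They use the grouping proposed with the separation of these arrays known, so their p-values are no independent evidence of it. These ratios show unequal change between probe sets, not relative amounts of the transcripts.

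Among the enzymes that lengthen and link glucan, GAS3 and UTR2 fell and their closest relatives did not pass the test. GAS3, a member of the Gas family of glucan elongases, read 335 and 295 at 0 days, 235 and 447 at 3 days, 101 and 188 at 7 days, and 142 and 120 at 14 days. Every late array was below every early one, and the gene was 2.38-fold lower (-1.25 ± 0.31 log2, limma adjusted p = 0.0253). GAS1, the principal elongase, differed by little over the series, with signals between 5977 and 8291. UTR2, which links chitin to glucan, had 816 and 846 at 0 days, 746 and 807 at 3 days, 508 and 577 at 7 days, and 426 and 276 at 14 days. Its late arrays again lay below all early arrays, 1.86-fold lower (-0.90 ± 0.25 log2, limma adjusted p = 0.0365).

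CRH1 carries out the same cross-linking and is a known target of the integrity pathway. Late against early it differed by -0.81, beside -0.90 for UTR2. The log2 ratio of UTR2 to CRH1 differed by only -0.09 (exact permutation p = 0.857, adjusted p = 0.914 over the 11 pairs). CRH1 stood at 499 and 729 at 0 days, 228 and 161 at 3 days, 123 and 315 at 7 days, and 264 and 139 at 14 days. All 6 frozen arrays were below both 0 day arrays already from 3 days, yet no comparison passed the test (at 14 days -1.65 log2, limma adjusted p = 0.107). KRE6, needed for beta-1,6-glucan, likewise read 1501 and 1134 at 0 days and 578 to 811 in the 6 frozen arrays (at 14 days -1.13 log2, limma adjusted p = 0.0979). KRE5, an endoplasmic reticulum protein of the same pathway, had one 0 day array at 15.6, against 79.2 to 157 in the other 7, and its probe sets disagreed in direction.

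SCW10 itself was 2.79-fold lower late against early (-1.48 ± 0.27 log2, limma adjusted p = 0.00850), while its relative SCW4 read 1267 to 3522 over all arrays with overlapping groups. The log2 ratio of SCW10 to SCW4 averaged -2.61 ± 0.44 in late arrays and -1.23 ± 0.75 in early arrays (SD, n = 4 each). That difference of -1.38 had an exact permutation p of 0.0571 and an adjusted p of 0.210 over the 11 pairs. BGL2, the abundant wall glucan-modifying protein, had late arrays of 4819 to 5460 above early arrays of 2494 to 4781, with a limma adjusted p of 0.0956.

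In the chitin group 1 gene was called. CHS3, the synthase that lays down most of the wall's chitin, read 772 and 794 at 0 days, 564 and 547 at 3 days, 251 and 542 at 7 days, and 234 and 276 at 14 days. All late arrays were below all early ones, although the upper 7 day array stood beside the 3 day arrays. CHS3 was 2.15-fold lower late against early (-1.11 ± 0.29 log2, limma adjusted p = 0.0300). CHS5, part of the coat that carries Chs3 out of the Golgi, gave 62.7 and 109 at 0 days, 171 and 122 at 3 days, 158 and 169 at 7 days, and 188 and 168 at 14 days. Its 6 frozen arrays were above both 0 day arrays, but the late minus early difference of 0.64 was not called (limma adjusted p = 0.135). CHS7, the chaperone that lets Chs3 leave the endoplasmic reticulum, had 1292 and 1574 at 0 days, 1501 and 1334 at 3 days, 896 and 921 at 7 days, and 1252 and 1406 at 14 days. Both 7 day arrays were the lowest, and the F test did not call it (limma adjusted p = 0.408). The chitinase gene CTS1 and the precursor enzyme gene GFA1 were not called in any comparison.

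Most of the 13 wall protein genes had lower signals at 3 days, none of them called, and 2 of the 13 rose later. At 3 days against 0 days, 12 of the 13 had a negative difference and 1 a positive one, where 55.3% of all genes were positive. The class median was -0.57 on the log2 scale, beside 0.08 for all genes. SUN4 was the exception at 0.63. The 12 negative genes include KRE2 (-0.17) and PSA1 (-0.46), whose products make mannan and its precursor. The smallest differences among the 12 were those of CCW12 (-0.04) and ECM33 (-0.08). Both 3 day arrays lay below both 0 day arrays for 7 of the 13 genes (53.8%), where 14.2% of all genes showed that pattern. Over all 56 members this held for 21 (37.5%), and the opposite order for 6 (10.7%, beside 20.9% of all genes). None of the 13 passed the adjusted test at 3 days, and 4 had an unadjusted p under 0.05 by limma (30.8%, beside 7.02% of all genes): HSP150, CIS3, SED1 and CCW14. HSP150 and CIS3 are neighbouring genes for PIR proteins, which bind glucan directly. A further list of 30 wall enzymes and wall proteins had 16 negative and 14 positive differences at 3 days, with a median of -0.05. Of those 30, 2 had an unadjusted limma p under 0.05 (6.67%). On unnormalised values and with array medians set equal, 8 of the 13 members of the class were negative. The class medians were then -0.04 and -0.20, beside 0.34 and 0.17 for all genes. Without 0 day replicate 1 the class median was -0.29, beside 0.04 for all genes.

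**Figure D3:**
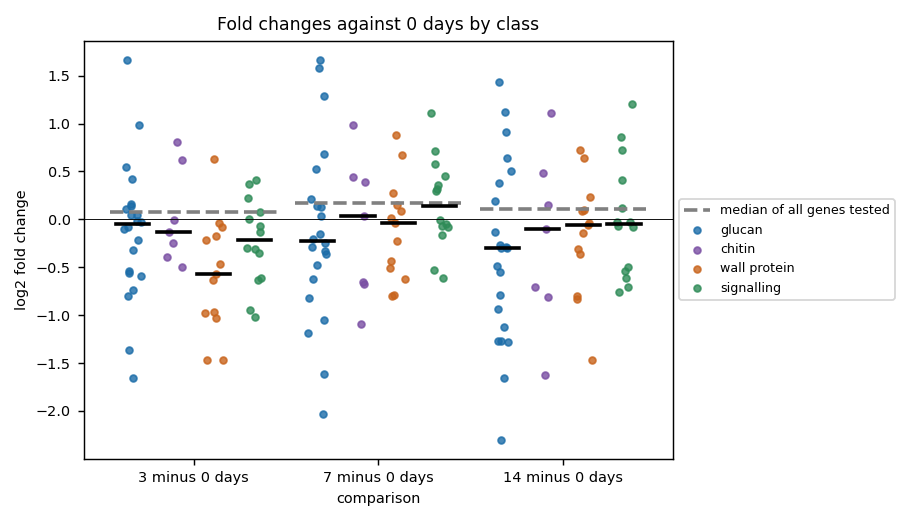
Log2 fold changes of each gene against 0 days at 3, 7 and 14 days (vertical axis), coloured by class, with black bars at class medians and grey dashed lines at the median of all genes tested. The wall protein median is -0.57 at 3 days and -0.06 at 14 days, and the glucan median is -0.30 at 14 days.

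CCW14 encodes a glycosylphosphatidylinositol-anchored (GPI) protein of the inner wall layer. It read 6922 and 4414 at 0 days, 4156 and 3347 at 3 days, 8728 and 8872 at 7 days, and 9476 and 8784 at 14 days. The 4 late arrays were close together and all above the early ones. CCW14 rose 1.97-fold late against early (0.98 ± 0.18 log2, limma adjusted p = 0.00820). Against 3 days it rose 2.36-fold at 7 days (limma adjusted p = 0.0452), where 1.20% of all genes were called and 0.752% as higher. At 14 days against 3 days it rose 2.45-fold (adjusted p = 0.0248), where 4.59% of all genes were called and 2.56% as higher. Against 0 days the 14 day difference was 0.72 with an adjusted p of 0.135.

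SED1, a major stress-responsive GPI protein of the wall in resting cells, read 3489 and 1925 at 0 days, 1536 and 1052 at 3 days, 4019 and 5651 at 7 days, and 5170 and 3144 at 14 days. The second 14 day array fell below the first 0 day array, so late and early overlapped there, while both 3 day arrays were the lowest. SED1 rose 2.41-fold late against early (1.27 ± 0.27 log2, limma adjusted p = 0.0145). Its largest called difference was 7 days against 3 days, 3.75-fold (1.91 ± 0.38, adjusted p = 0.0452), followed by 14 days against 3 days at 3.17-fold (adjusted p = 0.0372). The low 3 day arrays enter each of these folds. Against 0 days SED1 differed by 0.88 at 7 days and 0.64 at 14 days, neither of them called.

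SUN4, a wall protein of cell separation, ran the other way: 733 and 508 at 0 days, 1212 and 740 at 3 days, 377 and 486 at 7 days, and 482 and 253 at 14 days. All late arrays were below all early ones, but the difference of -0.98 ± 0.31 missed the threshold (limma adjusted p = 0.0539). The PIR gene PIR3 had 1 high array of 697 at 0 days beside 135 in its replicate. CCW12, the most abundant structural mannoprotein gene of many yeast cells, read between 13345 and 18923. Both 3 day and both 14 day arrays had the same value, 15473, since quantile normalisation gives equal ranks equal values. Its narrow range is therefore partly set by the processing, and its 14 day difference ran between -0.31 and 0.38 over the alternatives.

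In the signalling group the transcription factor moved and the kinases above it did not pass the test. RLM1 read 113 and 139 at 0 days, 103 and 101 at 3 days, 219 and 336 at 7 days, and 267 and 311 at 14 days. The late arrays lay above all early ones with a gap between them. RLM1 rose 2.47-fold late against early (1.31 ± 0.26 log2, limma adjusted p = 0.0126) and 2.82-fold at 14 days against 3 days (1.50 ± 0.37, adjusted p = 0.0462). Against 0 days the 14 day difference of 1.20 had an adjusted p of 0.104.

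SLT2, the kinase that activates Rlm1, had 213 and 238 at 0 days, 267 and 316 at 3 days, 220 and 515 at 7 days, and 322 and 432 at 14 days. The first 7 day array stood among the early ones, and the late minus early difference of 0.47 ± 0.31 was not called (limma adjusted p = 0.317). At 14 days against 0 days PKC1 differed by -0.61, BCK1 by -0.50, MKK1 by -0.54 and MKK2 by 0.86, all without a call. The log2 ratio of MKK2 to MKK1, partly interchangeable kinases, averaged -0.30 ± 0.55 in late arrays and -1.36 ± 0.45 in early arrays (SD, n = 4 each). The difference of 1.06 had an exact permutation p of 0.0286 and an adjusted p of 0.157. None of the 11 pairs passed at an adjusted p under 0.05, and 2 had an exact p under 0.05.

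No surface sensor was called. MTL1, a relative of the sensor gene MID2, read 74.5 and 49.8 at 0 days, 34.2 and 26.3 at 3 days, 54.6 and 63.6 at 7 days, and 34.9 and 36.9 at 14 days, and its 3 and 14 day arrays were below the others (F test, limma adjusted p = 0.409). WSC2 had 201 and 306 at 0 days, 201 and 83.2 at 3 days, 164 and 162 at 7 days, and 156 and 149 at 14 days (F test, limma adjusted p = 0.506). Its 4 late arrays stood close together inside the range of the early ones. RHO1, the switch between sensors and kinases, differed by -0.07 at 14 days.

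**Figure D4:**
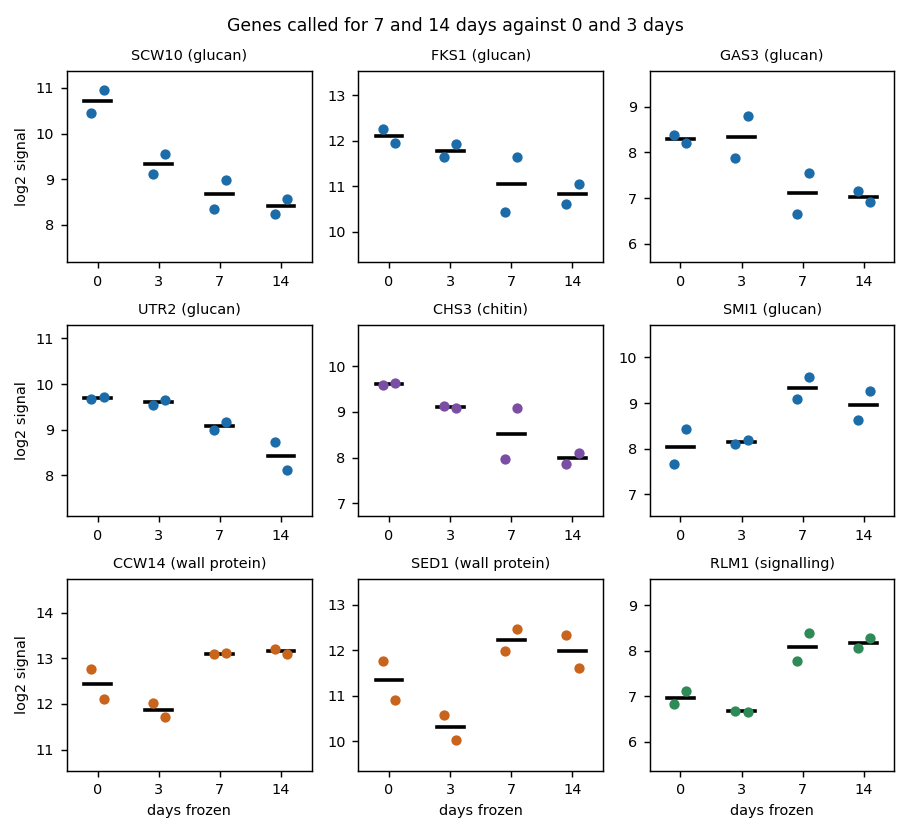
Log2 signal (vertical axis) of each of the 9 genes called late against early in every array by days frozen, with black bars at the mean of the 2 arrays and each vertical axis spanning the same width. SCW10 is already lower at 3 days, whereas RLM1 and CCW14 separate between 3 and 7 days.

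Set side by side at 14 days against 0 days, the class medians on the log2 scale were -0.30 for glucan, -0.10 for chitin, -0.06 for wall proteins and -0.05 for signalling, beside 0.11 for all genes. Late against early they were -0.20, -0.37, 0.15 and 0.12 in the same order of classes, beside 0.12 for all genes. Leaving out 1 array moved these late against early medians to -0.28 to 0.0064 for glucan (highest without 3 day replicate 2) and -0.39 to -0.03 for chitin (highest without 0 day replicate 2). The ranges were 0.05 to 0.28 for wall proteins and 0.04 to 0.23 for signalling. Unnormalised they were 0.16, 0.20, 0.47 and 0.57 by class, under an all-gene median of 0.61, and with equal array medians the wall protein median was 0.0022. These medians describe the classes, and no difference between classes was tested. Without normalisation all 4 medians at 14 days were positive, from 0.04 to 0.44, under an all-gene median of 0.59. Between 14 and 7 days none of the 56 was called by limma, none had an unadjusted p under 0.05 (0.925% of all genes had), and 0% of all genes were called.

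The late and early calls differed in how they held when 1 array was left out. SCW10, CCW14 and RLM1 were called in all 8 such fits. SED1 was lost without 3 day replicate 2 or 14 day replicate 1, its values running between 1.04 and 1.48. GAS3 was lost without 3 day replicate 2, 7 day replicate 1 or either 14 day array, with values between -1.48 and -1.01. CHS3 was kept only without 0 day replicate 1 or 7 day replicate 2 (-1.37 to -0.83), and FKS1 only without 7 day replicate 2 (-1.33 to -0.74). SMI1 was kept only without 0 day replicate 2 (0.86 to 1.24), and UTR2 only without 0 day replicate 1 (-1.05 to -0.75). No direction turned in these fits.

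Scaling ended other late against early calls. On unnormalised values SCW10 (-0.84), GAS3 (-0.64), CHS3 (-0.45) and UTR2 (-0.23) were not called, beside the 0.61 shift of the all-gene median. With equal array medians CHS3 (-0.92), UTR2 (-0.70) and CCW14 (0.53) were not called. With the mean over its probe sets FKS1 was at -0.60 and not called. Without the intensity trend SCW10, SED1 and RLM1 were the 3 members called.

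The calls among pairs of frozen times were less stable. The 7 against 3 day calls of CCW14 (1.07 to 1.39) and SED1 (1.56 to 2.25), and the 14 against 3 day call of RLM1 (1.40 to 1.61), were each lost without any one of the 6 arrays of 3, 7 and 14 days. At 14 against 3 days CCW14 (1.12 to 1.44) was lost without 3 day replicate 2 or either 14 day array. SED1 (1.32 to 2.06) was lost there without either 3 day array, 7 day replicate 2 or either 14 day array.

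**Figure D5:**
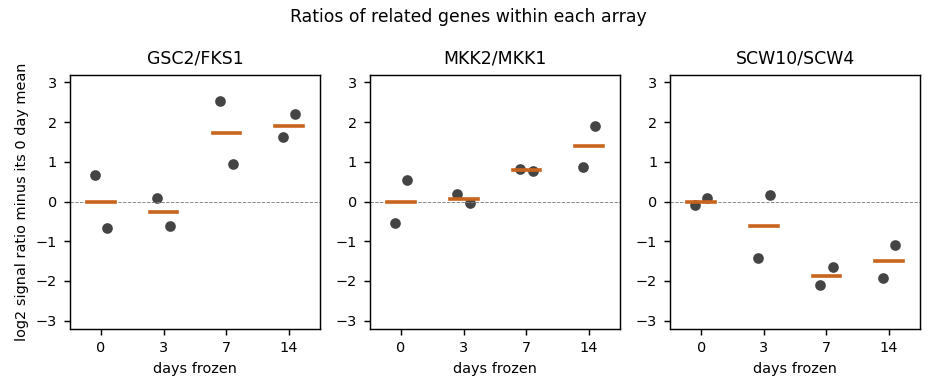
Log2 signal ratio within each array minus its 0 day mean (vertical axis) by days frozen, for 3 of the 11 pairs of related genes, with orange bars at the mean of the 2 arrays. The late ratios of GSC2 to FKS1 and of MKK2 to MKK1 all lie above the early ones, and no pair passed after adjustment over the 11.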

How the data were processed

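The deposited table holds probe set intensities on a linear scale for 8 arrays, whose software and scaling were not given in the sources used here. Poly(A) RNA was extracted and cRNA labelled with biotin by the authors, per the labels' protocols. Of 9335 probe sets, 60 controls were removed. Intensities were quantile normalised, raised to the pooled 5th percentile (2.52) and converted to log2, and probe sets under the 25th percentile of mean log2 (4.16) were left out. Each gene was read from its brightest single-gene probe set, which left 5188 genes. No depth applies to arrays, and their number limits the precision.

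One limma model (limma 3.58.1, R 4.3.3) with a coefficient per time was fitted to all 8 arrays, with an intensity trend, 4 residual and 6.89 prior degrees of freedom. Tests were two-sided, with Benjamini-Hochberg adjustment over all genes within each comparison. P-values measure the spread between the 2 samples a time, which the submitters describe as independent.

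Members, lists and the late against early grouping were chosen with earlier results of these data known. Arrays are given in full for members called in any comparison and for the 3 of each class with the smallest F test p, with GSC2, CRH1 and SLT2 added after their values were seen. From further lists up to 3 called genes are named by smallest p. Alternatives covered normalisation, filter, probe set choice, floor, trend, weights, blocks and leaving out each array. Promoter and protein sequences were not used here.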

Additional observations from a re-analysis of the deposited data

How the results depend on the processing

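At 3 days against 0 days no member was called under any of the 20 alternatives. At 7 days (0 in the report) 12 were called without normalisation, and 1 each with the filter at the median, with the mean over probe sets, with a constant of 16 added, and with an array set block. That block sets apart, within each time, the array with the higher mean log2 signal of the 15 spiked control probe sets (0 day replicate 2 and replicate 1 of 3, 7 and 14 days). The sets overlap in that signal (4.35 to 6.97 against 3.96 to 4.89), and their ACT1 3' to 5' ratios were 2.16 to 2.86 against 1.41 to 2.01. Leaving out 1 array gave 0 to 1, the 1 without 0 day replicate 1. At 14 days (1 in the report) the counts were 2 without normalisation, 3 with the array set block (CHS3 and FKS1 added), and 0 without the trend, with only the groups compared or with array weights. Leaving out 1 array gave 0 to 1. Late against early (9 in the report), 14 were called without normalisation, 3 without the trend, and 3 to 8 when 1 array was left out. The F test (2 in the report) called 6 without normalisation, 0 with equal array medians, 1 without the filter, 0 without the trend, and 0 to 3 when 1 array was left out. Pairs of frozen times (5 calls in the report) gave 8, 0, 1 and 0 under the same alternatives, and 0 to 5 when 1 array was left out. Fitting only the groups compared gives no value late against early or for the F test. Without normalisation the calls over all genes also rose: 1413 higher and 9 lower at 7 days, and 386 and 17 at 14 days. Late against early they were 1545 higher and 97 lower, so the member counts without normalisation stand beside a shift of all genes. The causes were not tested.

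For class medians at 14 days against 0 days, the values without normalisation were 0.0396 for glucan, 0.42 for chitin, 0.24 for wall proteins and 0.44 for signalling, where the median of all genes shifted to 0.59. Leaving out 1 array gave -0.58 to -0.0467 for glucan, -0.15 to 0.17 for chitin, -0.31 to 0.0948 for wall proteins and -0.25 to 0.23 for signalling. The chitin median was -0.012 with equal array medians and 0.0228 with the filter at the median. RLM1 kept its late against early call under all 19 alternatives. No called member or list gene turned direction under any alternative run. Over all 56 genes, 31 kept their sign late against early under all alternatives, and 28 did so at 14 days.

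Whether replicate numbers pair the samples was not settled: correlations of same-numbered deviations were -0.09 to 0.09 between 0 days and the frozen times and 0.18 to 0.29 among the frozen times. A replicate block gave 1 call at 7 days, 1 at 14 days, 10 late against early, 3 by the F test and 6 among pairs of frozen times, and all 15 calls of the report were called in it. It added SCW10 at 7 days (adjusted p = 0.0288) and SUN4 late against early (0.0332) and at 14 against 3 days (0.0493). The array set block likewise called SCW10 at 7 days (0.0374) and SUN4 late against early (0.0454).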

Other observations

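Protein mannosylation, which decorates wall mannoproteins, was the further list with most falls. Late against early, 4 of its 25 tested genes fell and none rose by limma (16%). Of all genes 16.1% were called in either direction and 6.61% as lower. The list median was -0.54, beside 0.12 for all genes. Of its 25 genes only 3 were positive and 22 negative, where 55.8% of all genes were positive. PMT4, an O-mannosyltransferase of the endoplasmic reticulum, read 1486 and 1473 at 0 days, 1317 and 1236 at 3 days, 380 and 670 at 7 days, and 414 and 507 at 14 days. All late arrays were far below all early ones, 2.86-fold lower (-1.52 ± 0.26 log2, limma adjusted p = 0.00660), and the call held under all 19 alternatives. PMT4 was also called at 14 days against 0 days (-1.69, adjusted p = 0.0462), though not without any one of 7 arrays, 7 day replicate 1 being the exception (-1.85 to -1.55). SEC53 (-0.93, adjusted p = 0.0173) and PMI40 (-1.05, adjusted p = 0.0365), enzymes that make the mannose donor precursor, and the mannosyltransferase gene PMT2 (-0.78, adjusted p = 0.0304) also fell. PMI40 was named after its value was seen. PSA1, the next step of the same supply route and one of the 56 genes, differed by 0.39 late against early, with an adjusted p of 0.221.

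Among 20 further genes of the integrity pathway, 2 rose and 1 fell late against early (15%, beside 16.1% of all genes). SDP1, a stress-induced phosphatase that acts on Slt2, read 50.8 and 21.6 at 0 days, 59.3 and 22.6 at 3 days, 251 and 125 at 7 days, and 251 and 153 at 14 days. Every late array was above every early one, and SDP1 rose 5.35-fold (2.42 ± 0.43 log2, limma adjusted p = 0.00727), a call that held under all 19 alternatives. PKH1, a kinase that acts on protein kinase C, rose (1.24, adjusted p = 0.0294), and STT4, a phosphatidylinositol kinase gene, fell (-1.35, adjusted p = 0.0258). Among 30 further wall enzymes and wall proteins, 3 rose late against early by limma and none fell (10%, beside 9.52% of all genes called higher). They were the GPI protein genes SPI1 (1.78, adjusted p = 0.0137) and CWP1 (1.50, adjusted p = 0.0154) and the SUN family gene NCA3 (0.66, adjusted p = 0.0249). Of the 30 genes 17 were negative, with a list median of -0.08 beside 0.12 for all genes. SPI1 read 2596 and 665 at 0 days, 1016 and 1076 at 3 days, 4937 and 3403 at 7 days, and 3378 and 4683 at 14 days, and its call was lost only without 7 day replicate 1 (1.27 to 2.25 when 1 array was left out). Of 13 cell separation genes, 3 of them members, MOB2 rose (1.25, adjusted p = 0.0261), 7.69% of the list beside 9.52% of all genes called higher. Of 9 spore formation markers tested, limma called 0 late against early, and 2 had an unadjusted p under 0.05 (22.2%, beside 33.8% of all genes).

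When 1 array was left out, 14 of the 16 calls that these lists gave over all comparisons were lost at least once, and 0 turned direction. Late against early, MOB2 (0.98 to 1.54) and PMT2 (-0.85 to -0.72) were lost without any one of the 6 arrays of 3, 7 and 14 days. PMI40 was kept only without 0 day replicate 1 or 7 day replicate 2 (-1.27 to -0.81). SEC53 was lost without 3 day replicate 2, 7 day replicate 1 or either 14 day array (-0.99 to -0.88). PKH1 was lost without 3 day replicate 2 or any one late array (1.05 to 1.44). STT4 was lost without 3 day replicate 2, either 7 day array or 14 day replicate 1 (-1.67 to -1.04). CWP1 was lost without 3 day replicate 2, 7 day replicate 1 or 14 day replicate 1 (1.13 to 1.87). NCA3 was lost without 0 day replicate 2, 3 day replicate 2, 7 day replicate 1 or either 14 day array (0.54 to 0.77).

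On unnormalised values SEC53 (-0.44), PMI40 (-0.42), PMT2 (-0.30) and STT4 (-0.78) were not called late against early. With equal array medians PMI40 (-0.89), PMT2 (-0.77) and NCA3 (0.19) were not called. Without the intensity trend PMI40, PMT2, STT4 and NCA3 were not called.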
